A study of Mus musculus with 12 samples.

Results

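The macrophage markers followed here, 10 genes, were measured across white and brown fat of obese mice. They are Csf1r, Cd68 and Emr1 (now named Adgre1), which mark macrophages in general, and Mrc1, Cd163, Lyve1, Folr2, F13a1, Clec10a and Timd4, which mark tissue-resident macrophages. They were chosen by name in the gene symbol column of the deposited annotation among probe sets of the main category. All 10 were measured, each by 1 probe set, among 21651 genes in all. In white fat of the mutant mice, 6 of the 10 fell against ob/ob, where 16.7% of all genes were called lower. The other 4 (Cd163, Lyve1, F13a1 and Timd4), all resident markers, did not pass the test. Of these, Timd4 on all 6 WAT arrays and Cd163 on 5 of 6 read below the highest of the background controls.

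RNA from white fat (WAT, white adipose tissue) and from brown fat (BAT) was hybridised to Affymetrix mouse gene arrays. All mice were male, of strain C57, 4 months old and fed chow, and all carried ob/ob, the leptin mutation that makes mice obese. The controls were ob/ob, and the mice compared with them were ob/ob/Cidea-/-/Cidec-/-, called triple mutants here, which are labelled as lacking 2 lipid droplet proteins in addition to leptin. The 12 arrays formed 4 groups of 3, ob/ob WAT, triple mutant WAT, ob/ob BAT and triple mutant BAT. No lean group was analysed, and since the labels do not name the animal behind an array, a p-value here reflects the spread between samples, part or all of which may be technical.

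Several features of the arrays bear on all values below. The Cidea probe set read 9.13 on the log2 scale in triple mutant WAT against 5.31 in ob/ob WAT, and 11.32 against 11.45 in BAT. The Cidec probe set read 11.12 against 11.56 in WAT and 10.81 against 10.92 in BAT. The labels do not name the deleted exons, so these probe sets check neither the deletion nor the labels, and each group is named as labelled, with every direction below resting on those labels. The mean of 12 brown fat genes lay between 5.72 and 6.28 in ob/ob WAT, 8.43 and 9.19 in triple mutant WAT, 9.19 and 9.42 in ob/ob BAT, and 9.93 and 10.17 in triple mutant BAT. Skeletal muscle genes varied between BAT arrays, with a mean of 12 genes of 7.95, 11.22 and 10.97 on ob/ob arrays 1 to 3 and 10.78, 8.66 and 6.70 on triple mutant arrays 1 to 3, against 5.63 to 5.90 in WAT. The first ob/ob BAT array also stood apart from its group in a mean of 15 proliferation genes, at 7.63 against 6.26 and 6.16. As a measure of background, 45 antigenomic control probe sets, which match no mouse sequence, were read on each array, and the highest of them lay between 7.40 and 8.13. A gene below that highest control is described as within the range of the controls, and its level there is only an upper limit.

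Macrophages are phagocytes that enter fat in obesity, surround dying adipocytes and take up lipid, while a resident population lives beside the vessels and in the stroma. Their survival depends on the CSF1 receptor, encoded by Csf1r and bound by the ligands CSF1 and IL-34, and their identity on transcription factors such as PU.1 (Spi1, listed as Sfpi1 on this array). Resident macrophages carry scavenger and lectin receptors, among them the mannose receptor, the haemoglobin receptor CD163 and the hyaluronan receptor LYVE1.

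RefSeq windows from 250 bases before to 50 bases after a transcription start (build GRCm38.p6) were used for 6 of the 10 genes, 8 windows in all. They were searched on both strands for the PU.1 core GGAAGT, the longer PU.1 form GAGGAAGT that contains it, and the site TCACGTG of MiT/TFE factors. Below are shown 4 of these windows, for Cd68 and Mrc1, which fell in both tissues, and for Cd163 and F13a1, which did not pass the test in WAT. Each is written 5′ to 3′ on the strand of the gene, in lower case, with matches to the PU.1 core on either strand in capitals.
Cd68, chr11:69666121-69666420, minus strand: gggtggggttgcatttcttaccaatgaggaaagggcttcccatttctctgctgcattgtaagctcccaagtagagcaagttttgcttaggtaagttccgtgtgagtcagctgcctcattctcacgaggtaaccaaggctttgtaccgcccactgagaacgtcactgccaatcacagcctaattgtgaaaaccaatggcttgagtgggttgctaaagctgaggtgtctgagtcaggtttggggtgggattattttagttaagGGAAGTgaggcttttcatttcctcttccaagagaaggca
Mrc1, chr2:14229164-14229463, plus strand: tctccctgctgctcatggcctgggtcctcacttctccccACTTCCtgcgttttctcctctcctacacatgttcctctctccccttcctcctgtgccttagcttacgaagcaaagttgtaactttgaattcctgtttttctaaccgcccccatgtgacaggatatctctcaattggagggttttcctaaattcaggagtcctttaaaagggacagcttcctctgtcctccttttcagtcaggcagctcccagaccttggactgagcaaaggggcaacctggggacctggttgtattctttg
Cd163, chr6:124304401-124304700, plus strand: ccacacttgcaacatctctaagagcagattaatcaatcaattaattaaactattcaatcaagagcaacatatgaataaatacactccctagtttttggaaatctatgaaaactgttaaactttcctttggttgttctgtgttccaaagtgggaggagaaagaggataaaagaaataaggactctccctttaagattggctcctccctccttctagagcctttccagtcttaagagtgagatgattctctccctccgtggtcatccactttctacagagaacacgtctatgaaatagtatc
F13a1, chr13:37049164-37049463, minus strand: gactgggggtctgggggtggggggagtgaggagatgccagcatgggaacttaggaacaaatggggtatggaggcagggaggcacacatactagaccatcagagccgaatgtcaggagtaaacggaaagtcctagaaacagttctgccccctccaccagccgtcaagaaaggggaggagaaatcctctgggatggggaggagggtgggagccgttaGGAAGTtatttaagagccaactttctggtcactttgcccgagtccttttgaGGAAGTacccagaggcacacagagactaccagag

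The PU.1 core stood in a window of 5 of the 6 genes, Cd68, Mrc1, Folr2, F13a1 and Timd4. Folr2 and F13a1 each also had a window without it. It stood in 23.8% of all 32851 promoter windows, a share of windows and not of genes. In Cd68 it began 11 bases after the start site, and in Mrc1 it lay on the opposite strand, at position -211 from it. F13a1 held it at positions -35 and 16 from the second of its listed start sites, the latter within the longer form GAGGAAGT, which is found in 3.2% of all windows. The Cd163 window held no such letters. The MiT/TFE site occurred in none of the 8 windows (3.77% of all windows hold it). A match is a description of letters and not a binding site.

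The 3 general macrophage markers fell in both fat tissues of the mice labelled triple mutant. Cd68, a lysosomal glycoprotein abundant in phagocytes (probe set on chromosome 11, 69477715 to 69479629 on the minus strand, build NCBIM37), read 11.87, 11.77 and 11.69 on the 3 ob/ob WAT arrays and 8.41, 8.45 and 8.41 on the triple mutant WAT arrays. The groups did not overlap, and the arrays within each agreed closely. The fall was 10.2-fold (log2 change -3.35, SE 0.35, adjusted p = 2.31e-05, limma with Benjamini-Hochberg over all genes). In BAT Cd68 read 10.92, 9.10 and 9.72 in ob/ob and 8.26, 8.10 and 7.55 in triple mutants. These groups did not overlap either, although the ob/ob arrays ranged widely, with the first of them highest. The BAT change was -1.94 (SE 0.35, adjusted p = 0.0040), with 1 of the 3 triple mutant arrays within the range of the controls.

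Emr1 encodes the classical surface antigen of mouse macrophages (chromosome 17, 57498114 to 57622950, plus strand). It read 11.42, 11.43 and 11.30 in ob/ob WAT and 7.74, 7.94 and 8.33 in triple mutant WAT, a 10.4-fold fall (log2 change -3.38, SE 0.27, adjusted p = 5.54e-06). In BAT the ob/ob arrays read 9.60, 8.43 and 8.47 and the triple mutant arrays 7.03, 7.03 and 7.44. All 3 triple mutant BAT arrays lay within the range of the controls. The BAT fall (log2 change -1.67, SE 0.27, adjusted p = 0.0023) is therefore given as at least 1.81-fold. This takes the mean of the highest control of those arrays as the upper limit of the lower group, as for every such bound below. Each such bound is a point estimate from means and carries no sampling error, so it is not a guaranteed minimum.

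Csf1r encodes the receptor that keeps macrophages alive. It had the tightest WAT values of the 3, at 10.82, 10.70 and 10.72 in ob/ob and 8.68, 8.66 and 8.66 in triple mutants. The WAT fall was 4.22-fold (log2 change -2.08, SE 0.16, adjusted p = 5.25e-06), with an interval of the log2 change from -2.43 to -1.72 that does not reach the point estimates of Cd68 and Emr1. Its BAT values were 9.57, 8.99 and 8.98 in ob/ob and 7.32, 7.47 and 7.85 in triple mutants, with no overlap. The triple mutant BAT arrays again lay within the range of the controls, and the fall (log2 change -1.63, SE 0.16, adjusted p = 0.00026) was at least 2.30-fold.

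Of the 7 resident markers, 3 also fell in WAT, Mrc1, Folr2 and Clec10a. Mrc1, the mannose receptor CD206 that takes up glycoproteins (chromosome 2, 14151041 to 14253416, plus strand), read 10.43, 10.25 and 10.39 in ob/ob WAT and 8.62, 8.55 and 8.55 in triple mutant WAT. It fell 3.44-fold (log2 change -1.78, SE 0.11, adjusted p = 1.53e-06). Its values in BAT were 9.19, 8.93 and 8.81 in ob/ob and 7.67, 7.51 and 7.43 in triple mutants, and the spread within each BAT group was small beside the difference. The BAT change was -1.44 (SE 0.11, adjusted p = 0.00011), at least 2.0-fold, since all triple mutant BAT arrays were within the range of the controls.

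Folr2, the folate receptor beta of tissue macrophages (chromosome 7, 108988010 to 109005708, minus strand), read 10.78, 10.60 and 10.62 in ob/ob WAT and 8.16, 8.43 and 8.87 in triple mutant WAT. The WAT fall was 4.53-fold (log2 change -2.18, SE 0.24, adjusted p = 3.60e-05). In BAT it read 9.30, 8.53 and 8.34 in ob/ob and 7.39, 7.70 and 7.92 in triple mutants. The BAT groups did not overlap but came closer than those of WAT. The fall (log2 change -1.05, SE 0.24, adjusted p = 0.0122) was at least 1.68-fold as a point estimate (0.75 on the log2 scale). The interval of the log2 change, from -1.58 to -0.53, includes smaller falls than this bound. Its paralog Folr1, the folate receptor alpha of epithelia, did not pass the test in WAT (0.58, adjusted p = 0.053) or in BAT (0.06, adjusted p = 0.88).

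Clec10a, a lectin receptor for galactose-type sugars (chromosome 11, 69943918 to 69984336, plus strand), read 8.68, 9.32 and 9.02 in ob/ob WAT and 7.29, 7.24 and 7.48 in triple mutant WAT. All triple mutant WAT arrays lay within the range of the controls. The fall (log2 change -1.67, SE 0.32, adjusted p = 0.0015) was at least 2.31-fold as a point estimate (1.21 on the log2 scale). The interval of the log2 change, from -2.36 to -0.97, includes smaller falls than this bound. In BAT it read 7.56, 6.81 and 6.0 in ob/ob and 5.68, 5.68 and 6.26 in triple mutants. These groups overlapped, all 6 arrays were within the range of the controls, and the change of -0.92 did not pass the test (adjusted p = 0.069). It passed without the third ob/ob BAT array (-1.31, adjusted p = 0.0105) and with the muscle gene mean as a covariate (-1.23, adjusted p = 0.0113). The annotated region of its probe set contains most of that of its close paralog and neighbour Mgl2 (69943859 to 69951052 on the same strand), so the assignment of signal between these 2 genes is uncertain. The Mgl2 probe set itself read 6.89 in ob/ob WAT and 6.95 in triple mutant WAT, a difference of 0.06 (adjusted p = 0.88), and differed by -0.70 in BAT (adjusted p = 0.054).

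The other 4 resident markers did not pass the test in WAT, and their WAT groups overlapped. F13a1, which encodes the A subunit of coagulation factor XIII and is expressed by resident macrophages, monocytes and platelets (chromosome 13, 36959056 to 37141073, minus strand), read 8.78, 9.05 and 9.45 in ob/ob WAT and 8.81, 8.94 and 9.29 in triple mutant WAT. The change was -0.08 with an interval from -0.48 to 0.32 (adjusted p = 0.79), so a fall of the size of Mrc1 lies outside it. It was above every control on all 12 arrays. In BAT it read 9.02, 9.13 and 8.85 in ob/ob and 8.27, 8.42 and 8.75 in triple mutants, groups that did not overlap, but the change of -0.52 missed the threshold (SE 0.18, adjusted p = 0.074).

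Lyve1, the hyaluronan receptor of lymphatic endothelium and of perivascular macrophages (chromosome 7, 117994121 to 118006573, minus strand), read 7.57, 8.25 and 8.30 in ob/ob WAT and 8.18, 7.85 and 8.71 in triple mutant WAT. The difference of 0.20 had an interval from -0.57 to 0.97 (adjusted p = 0.73). The BAT values were 7.25, 8.54 and 8.16 in ob/ob and 7.56, 6.78 and 7.68 in triple mutants, with wide overlap and a change of -0.64 that did not pass the test (adjusted p = 0.24). The low ob/ob BAT array was the first, the one in which Cd68 and Emr1 were highest.

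Cd163, the scavenger receptor for haptoglobin and haemoglobin (chromosome 6, 124254674 to 124280545, plus strand), was low. It read 6.64, 7.20 and 7.79 in ob/ob WAT and 6.83, 6.86 and 6.90 in triple mutant WAT, so the triple mutant values lay inside the range of the ob/ob ones (change -0.35, SE 0.27, adjusted p = 0.37). Those in BAT were 6.88, 7.51 and 6.82 in ob/ob and 5.62, 5.78 and 6.21 in triple mutants, and the change of -1.20 passed the test (SE 0.27, adjusted p = 0.0105). All 6 BAT arrays were within the range of the controls, above 34 to 41 of the 45 in ob/ob and above 30 to 32 in triple mutants, so no fold is given. Timd4, a receptor for phosphatidylserine on dying cells (chromosome 11, 46624301 to 46657835, plus strand), lay between 5.21 and 5.78 on all 12 arrays, above only 28 to 32 of the controls. Its differences of 0.21 in WAT and 0.05 in BAT did not pass the test (adjusted p = 0.26 and 0.85). Their intervals ran from -0.08 to 0.49 in WAT and from -0.24 to 0.33 in BAT. Since every level was only an upper limit, a constant level is not read from them.

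**Figure D1:**
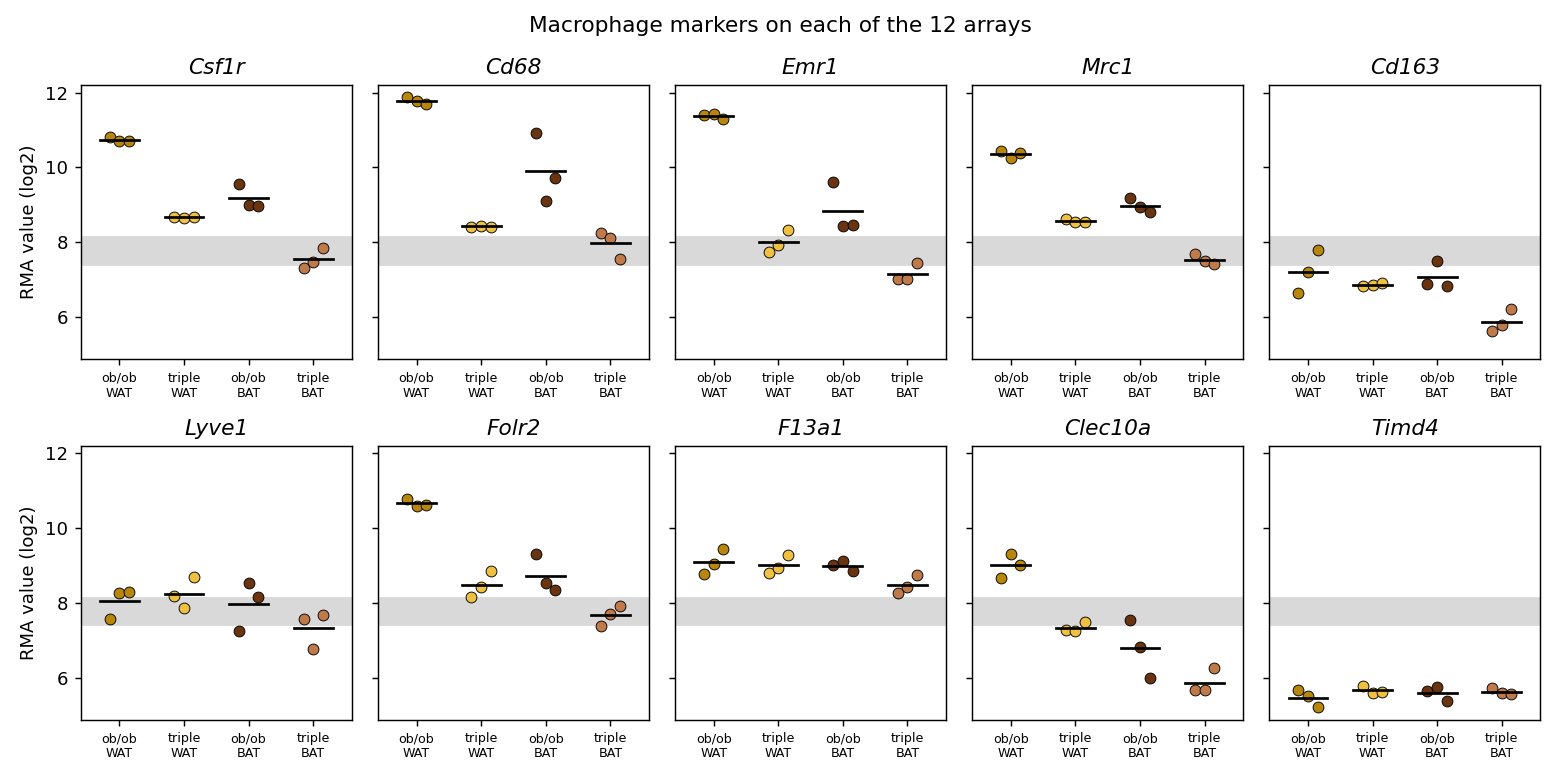
Log2 RMA value (vertical axis) of the 10 macrophage markers on each of the 12 arrays (points) by group, with group means (bars, n = 3), and the range over arrays of the highest antigenomic control (grey band, 7.40 to 8.13). In WAT the triple mutant arrays of Csf1r, Cd68, Emr1, Mrc1, Folr2 and Clec10a lie below all ob/ob arrays, while those of Cd163, Lyve1, F13a1 and Timd4 overlap them.

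In WAT, then, 6 of the 10 markers were called lower and 0 higher, where 16.7% of all genes were called lower and 17.6% higher. The median change of the 10 was -1.73, against 0.04 over all genes. At an unadjusted p under 0.05 the counts were also 6 lower and 0 higher. In BAT again 6 were called lower and 0 higher (8 and 0 at an unadjusted p under 0.05), where 6.97% of all genes were called lower and 10.4% higher, and the median change was -1.13 against -0.03. The 2 sets of 6 share 5 genes, Csf1r, Cd68, Emr1, Mrc1 and Folr2, with Clec10a called in WAT and Cd163 in BAT. The 6 falls in WAT passed the test in all 14 other settings and those in BAT in theirs, including without the first ob/ob BAT array. From whole tissue, fewer macrophages and less of each RNA per macrophage cannot be told apart.

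**Figure D2:**
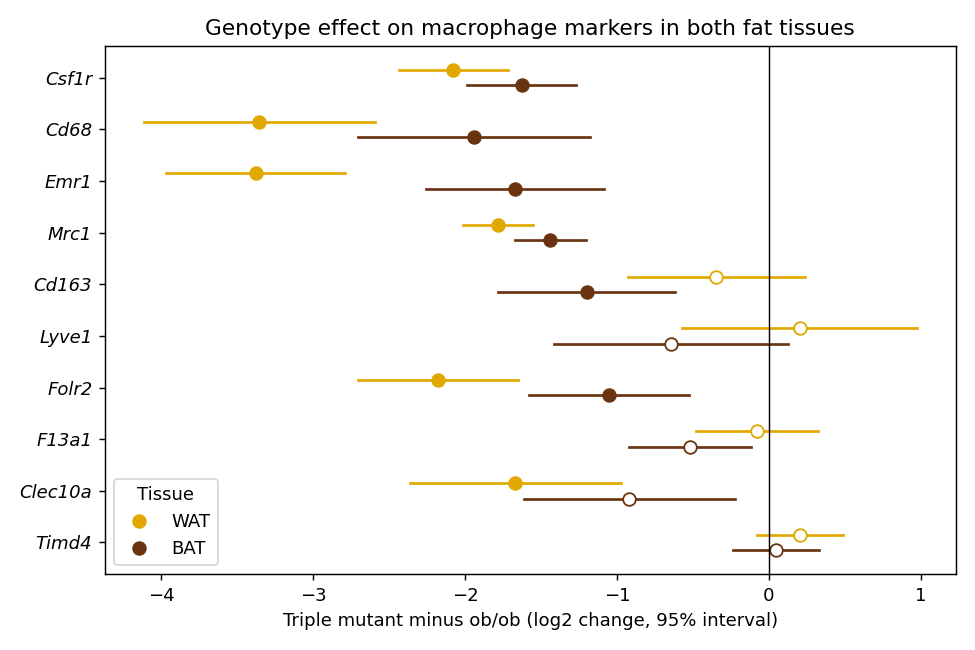
Log2 change from ob/ob to triple mutant (horizontal axis, points) with its 95% interval (lines) for each marker in WAT (yellow) and BAT (brown), with filled points where the adjusted p was under 0.05. Emr1 and Cd68 have the largest WAT changes of the 10, at -3.38 and -3.35, and the intervals of Cd163, Lyve1, F13a1 and Timd4 in WAT cross 0.

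The markers moved by different amounts in WAT, without a clean split between general and resident ones. Of the general markers, Csf1r fell less (log2 change -2.08, interval from -2.43 to -1.72) than Cd68 (-3.35) and Emr1 (-3.38). The changes of the resident markers Folr2 (-2.18) and Mrc1 (-1.78) lay within the interval of Csf1r. The mean of Csf1r, Cd68 and Emr1 was 11.37, 11.30 and 11.24 on the ob/ob WAT arrays and 8.28, 8.35 and 8.47 on the triple mutant WAT arrays. After this mean was subtracted on each array, every resident marker was higher in triple mutant WAT, by 3.14 for Timd4, 3.14 for Lyve1, 2.86 for F13a1, 2.59 for Cd163, 1.27 for Clec10a, 1.15 for Mrc1 and 0.76 for Folr2 on the log2 scale. Relative to the mean, the triple mutant arrays of F13a1 stood 2.74, 2.80 and 3.03 above the ob/ob group's mean, and the ob/ob arrays -0.38, -0.04 and 0.42 from it. Those of Folr2 stood 0.52, 0.72 and 1.04 above it, the smallest shift of the 7. All 7 were called in this fit, but so were 99.1% of all genes, because the same mean is subtracted from every gene, so nothing is read from that count. The values show an unequal change and not that any gene was constant. The values for Timd4 and Cd163 carry little weight here, since most or all of their WAT arrays lay within the range of the controls, where a level is only an upper limit.

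**Figure D3:**
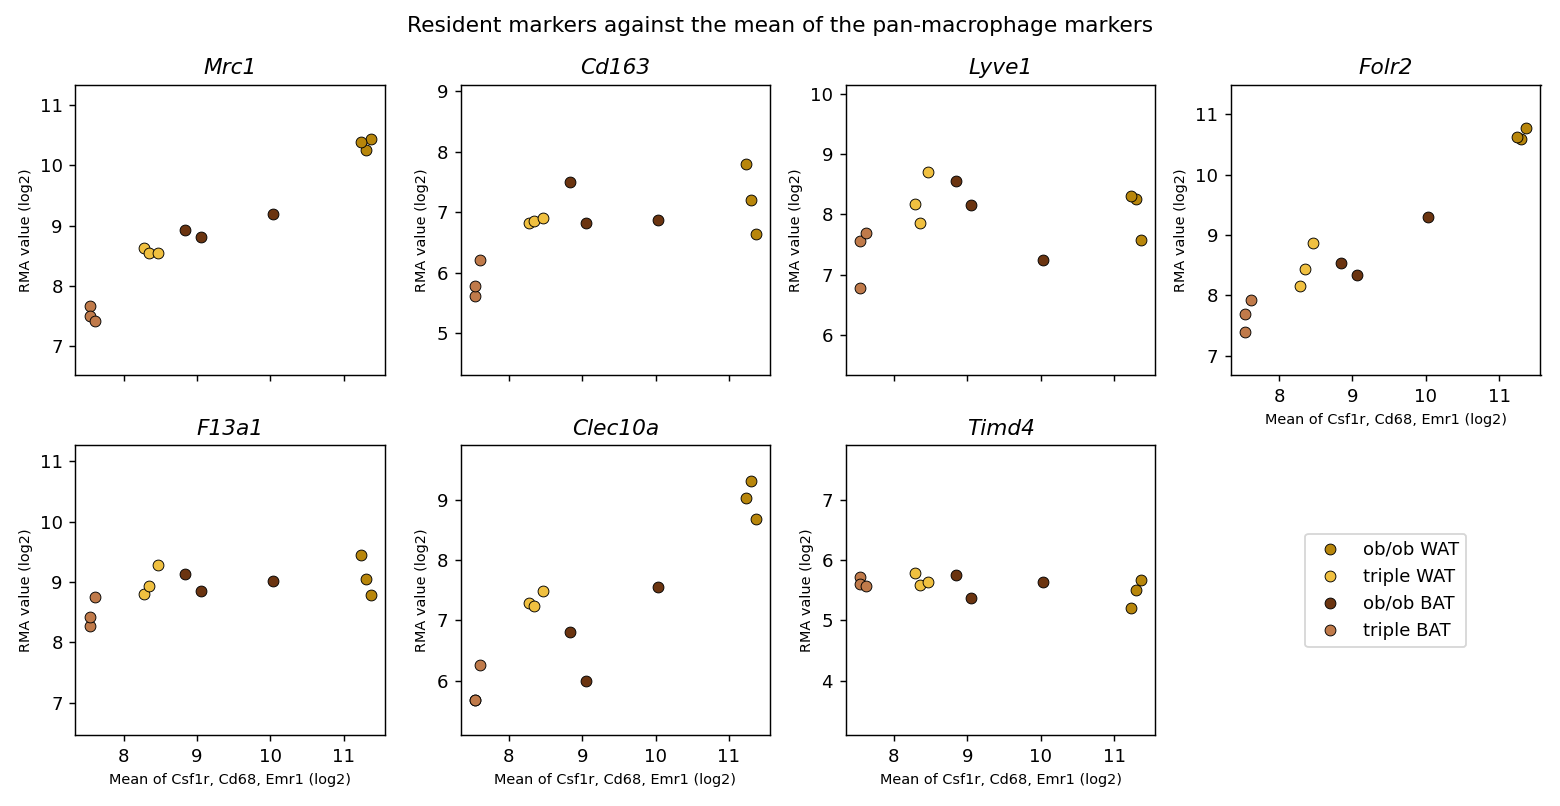
Log2 RMA value of each resident marker (vertical axis, all panels spanning the same number of log2 units) against the mean of Csf1r, Cd68 and Emr1 on the same array (horizontal axis, log2), 1 point per array. Mrc1 and Folr2 rise along the axis over the 12 arrays, F13a1 and Lyve1 show no such rise above triple mutant BAT, and Timd4 is flat within the range of the controls.

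Correlations between the markers over the 12 arrays are given as descriptions, since the arrays share 4 group means. Emr1 had a Pearson correlation of 0.99 with Folr2 and 0.97 with Mrc1, and 0.57 with F13a1 and 0.24 with Lyve1. Csf1r correlated at 0.74 with Cd163 and 0.65 with F13a1. Cd163 and F13a1 correlated at 0.93 with each other. After group means were subtracted, Emr1 and Folr2 stood at 0.93, Cd163 and F13a1 at 0.85, Emr1 and Mrc1 at 0.44, Folr2 and F13a1 at 0.42, and Cd68 and Lyve1 at -0.72. Csf1r then stood at -0.006 with Cd163 and at 0.24 with F13a1.

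Whether the genotype effect differed between the tissues was tested as the WAT change minus the BAT change. The fitted changes of Emr1 differed by -1.71 (SE 0.38, adjusted p = 0.0146), and this passed the test in all 19 other settings. Folr2 differed by -1.12 (SE 0.34, adjusted p = 0.049), close to the threshold, and missed it in 13 of 19 other settings (adjusted p from 0.0056 to 0.113). For both, the triple mutant BAT arrays were within the range of the controls, so the size of the BAT fall, and with it the size of the difference, is not measured there. The other 8 were not called (13.9% of all genes were, in either direction). Among them Cd68 differed by -1.41 (adjusted p = 0.078), Cd163 by 0.85 (adjusted p = 0.15) and Lyve1 by 0.85 (adjusted p = 0.28), the latter called (adjusted p = 0.0275) with animal as a block. Without the first ob/ob BAT array, 6 were called, Csf1r, Cd68, Emr1, Mrc1, Folr2 and Clec10a, with Cd68 at -1.92 (adjusted p = 0.0015).

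The means of the 4 groups followed 1 order for Csf1r, Cd68, Emr1 and Mrc1. It ran from ob/ob WAT, the highest, through ob/ob BAT and triple mutant WAT to triple mutant BAT. The last step, as BAT minus WAT in triple mutants, did not pass the test for Cd68 (-0.45, adjusted p = 0.46) or Emr1 (-0.84, adjusted p = 0.059). For Csf1r, Emr1 and Mrc1 all triple mutant BAT arrays lay within the range of the controls. The middle step, ob/ob BAT over triple mutant WAT, was 0.51 for Csf1r, 1.49 for Cd68, 0.83 for Emr1 and 0.40 for Mrc1 and was not tested. Folr2 followed the same order of means, but its middle groups overlapped. For Clec10a triple mutant WAT (7.34) stood above ob/ob BAT (6.79), with overlap. The top 3 groups of F13a1 lay at 9.09, 9.01 and 9.0 and overlapped, with triple mutant BAT below them at 8.48.

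Between the tissues of ob/ob mice, 6 of the 10 markers were lower in BAT and 0 higher (6 and 0 at an unadjusted p under 0.05), where 19.0% of all genes were lower and 18.2% higher. Emr1 was 5.84-fold lower in BAT (log2 difference -2.55, SE 0.27, adjusted p = 4.57e-05), Folr2 3.84-fold (-1.94, adjusted p = 0.00012), Cd68 3.64-fold (-1.87, adjusted p = 0.0016), Csf1r 2.97-fold (-1.57, adjusted p = 4.27e-05) and Mrc1 2.61-fold (-1.38, adjusted p = 8.43e-06). Clec10a was at least 1.99-fold lower (-2.22, adjusted p = 0.00030). F13a1, Lyve1, Cd163 and Timd4 differed by between -0.14 and 0.12 and did not pass the test. With the muscle gene mean as a covariate, the calls for Cd68 (-1.33, adjusted p = 0.15) and Clec10a (-1.20, adjusted p = 0.083) were lost. That mean lay between 5.63 and 5.90 on WAT arrays and between 6.70 and 11.22 on BAT arrays. It thus largely follows tissue, and a call can be lost for that reason alone. The part of muscle was not tested.

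In triple mutants, 5 of the 10 were lower in BAT than in WAT and 0 higher (8 and 0 at an unadjusted p under 0.05), where 7.93% of all genes were lower and 6.45% higher. Csf1r was at least 1.62-fold lower (log2 difference -1.12, adjusted p = 0.0011) and Mrc1 at least 1.51-fold (-1.04, adjusted p = 0.00014). Clec10a (-1.47, adjusted p = 0.0100) and Cd163 (-0.99, adjusted p = 0.028) were called from arrays all within the range of the controls. Folr2 (-0.82, adjusted p = 0.043) was at least 1.42-fold lower as a point estimate (0.51 on the log2 scale). The interval of its log2 difference, from -1.34 to -0.29, includes smaller differences than this bound. Only Csf1r and Mrc1 kept their calls with the muscle gene mean, which largely follows tissue, as a covariate. Under it Cd163 stood at -0.90 (adjusted p = 0.20), Clec10a at -0.79 (adjusted p = 0.20) and Folr2 at -0.27 (adjusted p = 0.57). With animal as a block Emr1 (-0.84, adjusted p = 0.032) and Lyve1 (-0.90, adjusted p = 0.0057) were called as well, and leaving out single arrays gave between 3 and 4 calls.

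The ligands and lineage factors of macrophages moved in both directions. Csf1, the main ligand of the CSF1 receptor, read 8.08, 7.77 and 8.30 in ob/ob WAT and 7.09, 7.23 and 6.99 in triple mutant WAT, and 8.03, 7.81 and 8.0 against 7.0, 6.90 and 6.72 in BAT. It fell in both tissues, by 0.95 in WAT (adjusted p = 0.00020) and by 1.07 in BAT (adjusted p = 0.00067) on the log2 scale, and it was above the controls in ob/ob WAT only. Il34, the other ligand, differed by 0.12 in WAT (adjusted p = 0.60) and fell by 0.57 in BAT (adjusted p = 0.021), with all 12 arrays between 6.03 and 7.09 and so within that range. The PU.1 gene Sfpi1 fell from 10.38 ± 0.21 to 6.92 ± 0.10 (SD, n = 3) in WAT (log2 change -3.46, adjusted p = 1.59e-05) and by 1.86 in BAT (adjusted p = 0.0041), and all triple mutant arrays lay within the range of the controls. Irf5, a factor of inflammatory macrophages, fell by 2.70 in WAT and by 1.51 in BAT (adjusted p = 2.78e-05 and 0.0053), also above the controls in ob/ob WAT only. Of the 16 genes of this list, 9 fell and 4 rose in WAT, where 16.7% of all genes fell and 17.6% rose. The 4 risers, named here after their values were seen, were Cebpa (1.06), Nr1h3 (0.89), Gata6 (0.75) and Cebpb (0.51), with adjusted p from 0.00030 to 0.0192. Which cells of the whole tissue they came from was not tested. In BAT 7 fell and 1 rose, where 6.97% of all genes fell and 10.4% rose. The median was -0.37 in WAT and -0.53 in BAT.

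Other general macrophage and myeloid genes fell almost throughout. Of 27, 25 fell and 0 rose in WAT, with a median of -2.87 against 0.04 over all genes. In BAT 21 fell and 0 rose, with a median of -1.49. Over all genes, 16.7% fell and 17.6% rose in WAT, and 6.97% fell and 10.4% rose in BAT. Tyrobp, a signalling adaptor of myeloid receptors, fell by 3.29 in WAT, and the complement genes C1qb, C1qc and C1qa changed by -2.32, -2.27 and -1.95. Genes of lipid-laden macrophages moved the same way in most cases, with 11 of 16 lower and 1 higher in WAT (median -2.98) and 9 lower and 1 higher in BAT (median -1.36). Among them the elastase gene Mmp12 went from 11.82 to 5.40 in WAT, the glycoprotein gene Gpnmb from 12.15 to 6.26 and Atp6v0d2, a proton pump subunit, from 11.71 to 4.73, each with a triple mutant level within the range of the controls.

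The remaining resident and alternatively activated macrophage genes moved in both directions in WAT. Of 30, 8 fell and 5 rose in WAT, where 16.7% of all genes fell and 17.6% rose, with a median of -0.18. In BAT 8 fell and 0 rose, where 6.97% of all genes fell and 10.4% rose, with a median of -0.27. Vsig4, a complement receptor of resident macrophages, fell by 2.96 in WAT (adjusted p = 9.84e-06), Siglec1, a sialic acid receptor, by 1.76 (adjusted p = 6.47e-05) and Cd5l, a secreted macrophage protein, by 2.90 (adjusted p = 6.16e-06). All 3 were within the range of the controls on every triple mutant WAT array, and Cd5l in ob/ob WAT too. Cbr2, a carbonyl reductase, rose from 8.56 ± 0.47 to 10.09 ± 0.10 in WAT (adjusted p = 0.00011) and fell from 9.02 ± 0.26 to 7.94 ± 0.07 in BAT (adjusted p = 0.0043, SD, n = 3 throughout), and the WAT and BAT changes differed by 2.62 (adjusted p = 0.00084). The other 4 that rose in WAT were lectin genes of the Cd209 family, named here after their values were seen: Cd209f by 1.64, Cd209d by 1.49, Cd209b by 0.96 and Cd209g by 0.73 (adjusted p from 0.00012 to 0.0195). All 4 were within the range of the controls in ob/ob WAT, and only Cd209f exceeded it in triple mutant WAT, on 2 of 3 arrays.

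**Figure D4:**
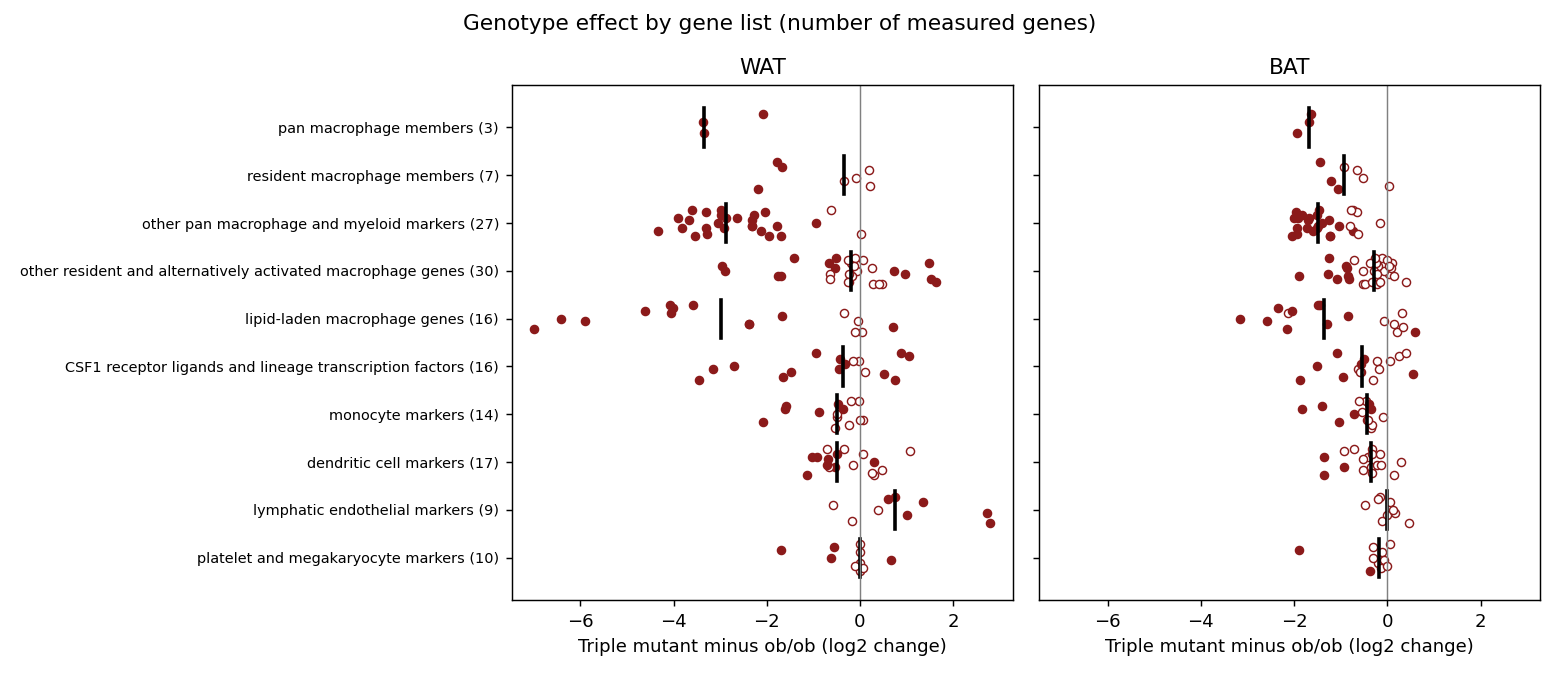
Log2 change from ob/ob to triple mutant (horizontal axis) of each measured gene (points) of 10 lists in WAT (left) and BAT (right), with filled points where the adjusted p was under 0.05 and list medians as black bars. The other general macrophage genes have medians of -2.87 in WAT and -1.49 in BAT, and the other resident genes -0.18 and -0.27.

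Lyve1 and F13a1 are also expressed outside macrophages, so markers of those cells are given beside them. The counts below stand beside shares over all genes of 16.7% lower and 17.6% higher in WAT. Of 9 lymphatic endothelial genes, 6 rose and 0 fell in WAT (median 0.76), with list means of 5.64 to 5.93 in ob/ob and 6.68 to 6.89 in triple mutants, while in BAT the median was -0.01 and the smallest adjusted p 0.16. The risers included Mmrn1 (2.72), Reln (1.36), Flt4 (1.01) and the defining factor Prox1 (0.76, named after its values were seen). Each of these named genes was within the range of the controls on all 12 arrays. The other risers, Ccl21a (2.80, adjusted p = 0.0028, named after its values were seen) and Nr2f2 (0.61, adjusted p = 0.0013), were within it in ob/ob WAT. They exceeded it on 3 and 2 of the 3 triple mutant WAT arrays. Pdpn (-0.57, adjusted p = 0.066) and Stab2 (-0.16, adjusted p = 0.26) had negative changes in WAT that did not pass the test. Of 10 platelet genes, 3 fell and 1 rose in WAT, with list means of 5.75 to 5.94 in ob/ob and 5.55 to 5.71 in triple mutants. Pf4, which is also in the resident macrophage list, had the largest change of these, -1.69 in WAT and -1.89 in BAT (adjusted p = 0.00029 and 0.00092). Of 14 monocyte genes, 6 fell and 0 rose in WAT (median -0.49), and of 17 dendritic cell genes 7 fell and 1 rose (median -0.48). The part of these cells in the Lyve1 and F13a1 values was not tested.

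Other lists moved with genotype in WAT as well, where 16.7% of all genes fell and 17.6% rose. Proliferation genes fell in 14 of 15 cases, from means of 7.77 to 7.95 to means of 5.93 to 6.0, and mast cell genes in 9 of 10. Adipocyte genes rose in 11 of 13 cases and blood endothelial genes in 6 of 10, with 0 lower in either list. In BAT 8 of 15 proliferation genes fell, where 6.97% of all genes did. Of the lists of other leukocytes, B cell genes fell in 1 of 10 cases in WAT and T and NK cell genes in 3 of 11. Neutrophil genes fell in 2 of 12, with 1 higher. Beside the shares over all genes, these few calls are not read as a change of those lists. The part of each of these in the marker changes was not tested.

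The genes whose pattern over the 12 arrays was most like the mean of the 10 standardised markers were Tmem176b and Tmem176a, a pair of membrane proteins, with Pearson correlations of 0.97 each. They were followed by Mest, Esyt1, the lectin receptor gene Clec4a1, Elovl1, Wisp2 and Efemp1, at 0.96 each. After group means were subtracted, Elovl1 stood at 0.85, Tmem176a at 0.81 and Clec4a1 at 0.78, while Efemp1 and Wisp2 stood at 0.22 and 0.18. These are descriptions of 12 arrays that share group means.

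For WAT, the authors' deposited table of changed genes lists 6 of the 10 markers among 5945 probe sets, with log2 fold changes of -3.23 for Emr1, -3.14 for Cd68, -2.02 for Folr2, -1.96 for Csf1r, -1.68 for Mrc1 and -1.50 for Clec10a. For BAT, the authors' deposited table lists 2 of the 10 among 1164 probe sets, Csf1r at -1.54 and Mrc1 at -1.30. Cd68, Emr1, Cd163 and Folr2, called lower in BAT here, are not in it. The authors' rule for listing a gene was not compared with the test used here.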

How the data were processed

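Total RNA of 12 fat samples was measured on Affymetrix arrays. The deposited log2 values of 35556 probe sets per array were used, made with RMA (background adjustment, quantile normalization, probe summary), per the submitters' processing notes, which give no version. A further 12 array columns of the authors' expression table matched no sample label and were not used. The authors' tables of changed genes hold log2 fold changes and fold changes as a ratio, per the file headers. Positions are those of the deposited annotation, build NCBIM37.

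Of the main probe sets, 25004 named 1 gene, and each of 21651 genes was represented by its probe set with the highest mean. Tests used the lmFit and eBayes functions of limma 3.58.1 (R 4.3.3; 4 group means, all 12 arrays, 8 residual and 3.47 prior degrees of freedom, two-sided), with Benjamini-Hochberg adjustment over all genes and a threshold of 0.05. The procedure was tested on simulated data. Scanner files were not used, so antigenomic controls measured background. The number of arrays limits precision. Python 3.11.15 and matplotlib 3.10.9 drew the figures.

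The genes named are the 10 markers, 2 ligands, close paralogs, the 8 genes of most similar pattern, and among the 4 genes of smallest p in WAT of each of 17 other lists. Members and lists were chosen with earlier results of these data known. Of the paralogs, Havcr1 and Stab2 passed the test in neither tissue. WAT and BAT arrays with the same genotype and number deviated together (correlations of deviations from group means 0.16 to 0.22 in ob/ob and 0.15 to 0.21 in triple mutants), so numbers were taken to pair the tissues within a genotype as 6 animals. This comes from the data, not from the labels. Alternatives were the mean over probe sets, a filter on genes below a mean of 5, quantile normalization within tissue, median centring, a trended robust prior, each tissue alone, replicate blocks and leaving out each array. The muscle gene mean as a covariate and an unpooled spread for the fit relative to the general markers were added after seeing the data. The results for 1 gene of these lists and for 1 further motif searched are not reported here.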

Additional observations from a re-analysis of the deposited data

Results flagged for a closer look

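The fitted genotype change of Emr1 differed between the tissues, with a WAT change minus BAT change of -1.71 on the log2 scale (adjusted p = 0.0146, limma interaction contrast). That of Folr2 differed by -1.12 (adjusted p = 0.049), a call lost in 13 of 19 other settings (adjusted p up to 0.113). For both genes the triple mutant BAT arrays were below the highest antigenomic control, so the size of the BAT change is not measured, and without the first ob/ob BAT array the differences were -2.09 and -1.41.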

How the results depend on the processing

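The 6 falls in WAT and the 6 in BAT kept their direction and their calls under every alternative run. Over all member values and alternatives, 767 of 828 kept direction and side of the threshold, 31 lost and 14 gained a call, and 16 changed sign. All 16 were values of Lyve1, Timd4, F13a1 or Cd163 that had no call in the report. The tally includes the fit relative to the general markers. It also includes settings that could not move a marker's change. Each marker had 1 probe set, so the mean over probe sets left its change as it was, as did the filter on dim genes. When single arrays were left out, the genotype change in WAT ranged from -0.0343 to 0.397 for Lyve1 and from -0.237 to 0.0994 for F13a1, and that in BAT from -0.0616 to 0.129 for Timd4. BAT minus WAT in ob/ob then ranged from -0.338 to 0.309 for Lyve1, -0.426 to 0.153 for Cd163, -0.248 to 0.0892 for F13a1 and -0.0015 to 0.233 for Timd4, and in triple mutants from -0.0807 to 0.0220 for Timd4. For BAT minus WAT in ob/ob, Lyve1 was 0.0025 after quantile normalization within tissue, and with the muscle covariate Cd163 was 0.0036 and F13a1 0.186. For BAT minus WAT in triple mutants, Timd4 was 0.0214 with median centring.

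The difference between tissues was the least steady count, with 1 lower in place of 2 under quantile normalization within tissue, under the trended robust prior and with the muscle covariate, and from 1 to 6 lower and 0 to 1 higher (Cd163, without ob/ob WAT array 3) when single arrays were left out. For BAT minus WAT in triple mutants the muscle covariate, which largely follows tissue, gave 2 lower, and leaving out single arrays gave 3 to 4. With animal as a replicate block, which pairs the tissues, 1 marker was higher in the difference between tissues (Lyve1, 0.85), and the block changed no other call but the gains of Emr1 and Lyve1 in triple mutants. Between genotypes the arrays share only a number: deviations correlated at -0.05, 0.07 and 0.11 in WAT and -0.43, -0.24 and -0.23 in BAT, and that block gave 6 lower in WAT and 7 in BAT, with F13a1 added (adjusted p = 0.047). Relative to the general markers, Folr2 missed the threshold when array 2 of ob/ob WAT (0.73, adjusted p = 0.0503) or array 3 of triple mutant WAT (0.62, adjusted p = 0.087) was left out. The main form of this fit gave all 7 resident markers the same SE of 0.31, and with an unpooled spread their adjusted p were at most 0.0025. Since 99.1% of all genes were called in the main form, nothing is read from these calls. Signal over background limits Timd4, Cd163 and Clec10a and most levels in triple mutant BAT.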
